A study of Mus musculus with 3 samples.

Results

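C1q macrophages are tumor phagocytes whose barcodes held transcripts of the complement component C1q, and 71 of them were found among 24668 cell barcodes that passed a quality filter, from 27374 deposited barcodes. A barcode was a member when at most 20% of its UMIs (unique molecular identifiers, which count RNA molecules) were mitochondrial, it held at least 200 genes, the melanin genes Dct and Pmel took under 0.5% of its UMIs, at least 2 of 7 phagocyte genes (Lyz2, Csf1r, Cd68, Cd14, Ms4a6c, Fcgr1 and Adgre1) and at least 2 of C1qa, C1qb and C1qc had a UMI, and Cd3e, Cd79a, Ncr1 and Col1a1 had none. The members were thus chosen by their own UMIs of C1q and of the phagocyte genes, and every value within these cells is given as a description, with no test. The cells came from tumors of B16-F10, a murine melanoma cell line, labelled as skin, from C57BL/6J mice that were 6 to 8 weeks old. In the 2 libraries labelled shMib2 (replicates 1 and 2) the tumor cells carried an shRNA to Mib2, with a separate shRNA in each, and in the 1 library labelled shCtrl they carried a control shRNA. Each library pooled the tumors of 3 mice, so variation between mice was not measured, and all 3 libraries went through the same enzymatic dissociation and lysis of red blood cells.

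C1q is the recognition molecule of the classical complement pathway, and macrophages are a main source of it. It binds immune complexes and dying cells and marks them for complement activation or for uptake. In tumors, C1q transcripts are used to tell macrophages from monocytes, which enter from the blood, and from dendritic cells, which present antigen to T cells.

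The libraries labelled shMib2 replicate 1, shMib2 replicate 2 and shCtrl held 190904274, 203298455 and 243926188 UMIs. Medians were 21441, 11813.5 and 25181 UMIs per deposited barcode, and 860, 1105 and 741 barcodes were left out by the quality filter. Between 20 and 30 barcode sequences were shared by any pair of libraries, and 1 of these belonged to a member in shMib2 replicate 2 and to a non-member in shCtrl. Mib2, which encodes an E3 ubiquitin ligase, had 561 and 492 UMIs in the melanin-rich barcodes labelled shMib2, against 590 in those labelled shCtrl. Scaled to 1000000 UMIs (CPM), this was 3.13 and 2.66 CPM, against 2.49 CPM. The target was thus not lower in the libraries labelled shMib2, and each direction given here is one between labels.

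The promoters of the C1q genes are shown because these transcripts define the cells. C1qb, C1qc and C1qa encode the B, C and A chains of C1q and lie next to each other on the minus strand of chromosome 4 of mm10, within 18675 bases from 136880129 to 136898803. C1qb spans 136880129 to 136886187, C1qc 136889804 to 136893065 and C1qa 136895917 to 136898803. The RefSeq table of promoters (250 bases before to 50 after a gene start, build GRCm38.p6) gave the C1qb window chr4:136886151-136886450 and the C1qc window chr4:136892865-136893164, both on the minus strand, and, for comparison, the window of the chemokine gene Ccl8, chr11:82114935-82115234 on the plus strand. Capitals mark GAGGAA, the core bound by the myeloid factor PU.1, on either strand (TTCCTC on the other).
C1qb promoter: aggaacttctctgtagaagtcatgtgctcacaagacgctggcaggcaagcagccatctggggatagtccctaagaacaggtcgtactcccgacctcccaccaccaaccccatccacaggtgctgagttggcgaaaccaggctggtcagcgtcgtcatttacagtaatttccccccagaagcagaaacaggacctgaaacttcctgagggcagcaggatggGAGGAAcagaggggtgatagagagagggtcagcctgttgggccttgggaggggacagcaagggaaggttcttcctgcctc
C1qc promoter: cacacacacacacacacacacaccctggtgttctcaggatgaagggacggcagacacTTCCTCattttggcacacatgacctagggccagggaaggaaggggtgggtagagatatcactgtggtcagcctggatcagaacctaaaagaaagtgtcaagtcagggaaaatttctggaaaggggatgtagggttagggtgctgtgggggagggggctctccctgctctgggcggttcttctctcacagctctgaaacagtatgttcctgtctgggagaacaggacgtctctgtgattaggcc
Ccl8 promoter: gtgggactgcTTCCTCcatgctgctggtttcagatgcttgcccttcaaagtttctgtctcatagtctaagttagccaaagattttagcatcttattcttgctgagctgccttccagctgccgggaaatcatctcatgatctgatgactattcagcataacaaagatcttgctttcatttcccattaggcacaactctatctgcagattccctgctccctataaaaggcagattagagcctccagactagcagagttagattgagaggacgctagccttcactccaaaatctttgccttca
The core occurred once in each of these windows, on the gene's own strand in C1qb and on the other strand in C1qc and Ccl8. It occurs in 28.3% of 32851 promoter windows of this length, so its presence is a description only. The Maf half-site TGCTGA, which overlaps none of the capitals, was found in the C1qb and Ccl8 windows and occurs in 19.5% of all windows.

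C1q macrophages numbered 19 in shMib2 replicate 1 and 50 in shMib2 replicate 2, against 2 in shCtrl. They were 0.222% (Wilson 95% interval 0.142% to 0.346%) and 0.687% (0.521% to 0.904%) of the barcodes past the filter in the libraries labelled shMib2, against 0.0227% (0.00622% to 0.0827%) in shCtrl. Intervals cover counting error only. The ratios to shCtrl were 9.78 (exact interval 2.36 to 86.6) and 30.3 (7.95 to 257), with a mean of 20.02 ± 14.5 (SD, n = 2 libraries). Both libraries labelled shMib2 lay above shCtrl, and replicate 2 lay 3.10 times (1.79 to 5.56) above replicate 1. With 1 library against 2, an exact permutation test cannot go below p = 0.33, and none was run.

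**Figure D1:**
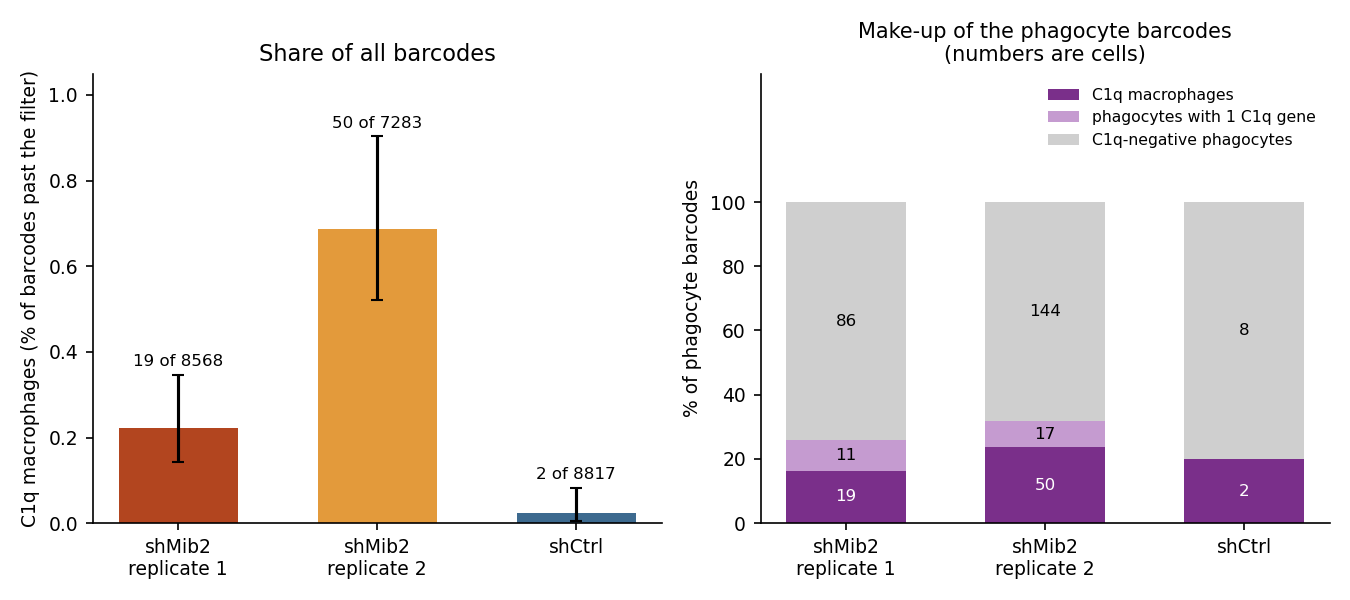
C1q macrophages by library. Left, bars give C1q macrophages as a percent of all barcodes past the filter, with Wilson 95% intervals as lines and the cells counted above (19 of 8568, 50 of 7283 and 2 of 8817). Right, stacked bars give the make-up of the phagocyte barcodes of each library in percent, with the number of cells in each part; C1q macrophages take 16.4%, 23.7% and 20%.

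The other phagocytes were more frequent in the same libraries. All phagocyte barcodes, defined by the same rule without the C1q genes, numbered 116 and 211 in the libraries labelled shMib2, against 10 in shCtrl, and T cells (at least 2 of Cd3d, Cd3e and Cd3g, subunits of the T cell receptor complex) numbered 454 and 743, against 64. The ratio to shCtrl was 11.9 and 25.5 for phagocytes and 7.30 and 14.1 for T cells. Among phagocyte barcodes, C1q macrophages took 16.4% (10.7% to 24.2%) and 23.7% (18.5% to 29.9%) in the libraries labelled shMib2, against 20% (5.67% to 51.0%) in shCtrl. That ratio was 0.819 (0.198 to 7.25) in replicate 1 and 1.18 (0.311 to 10.1) in replicate 2, with a mean of 1.00 ± 0.259 (SD, n = 2), so the libraries labelled shMib2 lay on both sides of shCtrl. As a share of the barcodes with under 0.5% Dct and Pmel UMIs, which leaves out most B16-F10 cells, C1q macrophages took 0.995% and 1.61% in the libraries labelled shMib2, against 0.312% in shCtrl. The ratios were 3.19 and 5.17, with a mean of 4.18 ± 1.40 (SD, n = 2). Barcodes under that melanin limit were 22.3% and 42.6% of all in the libraries labelled shMib2, against 7.28% in shCtrl, and the part of this make-up in the ratio over all barcodes was not tested.

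Each member had between 2 and 179 UMIs of the C1q genes. The lowest, median and highest were 2, 11 and 88 in shMib2 replicate 1 and 2, 14.5 and 179 in replicate 2, and the 2 members in shCtrl had 17 and 9. All 3 C1q genes were found in 11 of 19, 38 of 50 and 2 of 2 members, and 2 of the 3 in the rest. The members just inside the rule, with at most 3 C1q UMIs, numbered 2 in each library labelled shMib2. Those just outside, phagocytes with 1 C1q gene, numbered 11 and 17 in the libraries labelled shMib2, against 0 in shCtrl, and had a median of 3 and 1 C1q UMIs. Their highest values, 7 and 15 UMIs, overlapped those of the members.

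C1qb was summed to 3798 and 3480 CPM over the members labelled shMib2, and C1qa to 2662 and 2470 CPM. C1qc had 2024 and 1981 CPM. These levels differed little between the libraries labelled shMib2, with means of 3639 ± 225, 2566 ± 135 and 2003 ± 30.1 CPM (SD, n = 2). The 2 members in shCtrl gave 8, 7 and 11 UMIs of C1qb, C1qa and C1qc among 1439 UMIs. The exact Poisson intervals in shCtrl, 2400 to 10954 CPM for C1qb and 1956 to 10023 CPM for C1qa, cover both values labelled shMib2, while that of C1qc, 3816 to 13678 CPM, lies above both. These intervals rest on 2 cells and hold no variation between cells or mice.

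**Figure D2:**
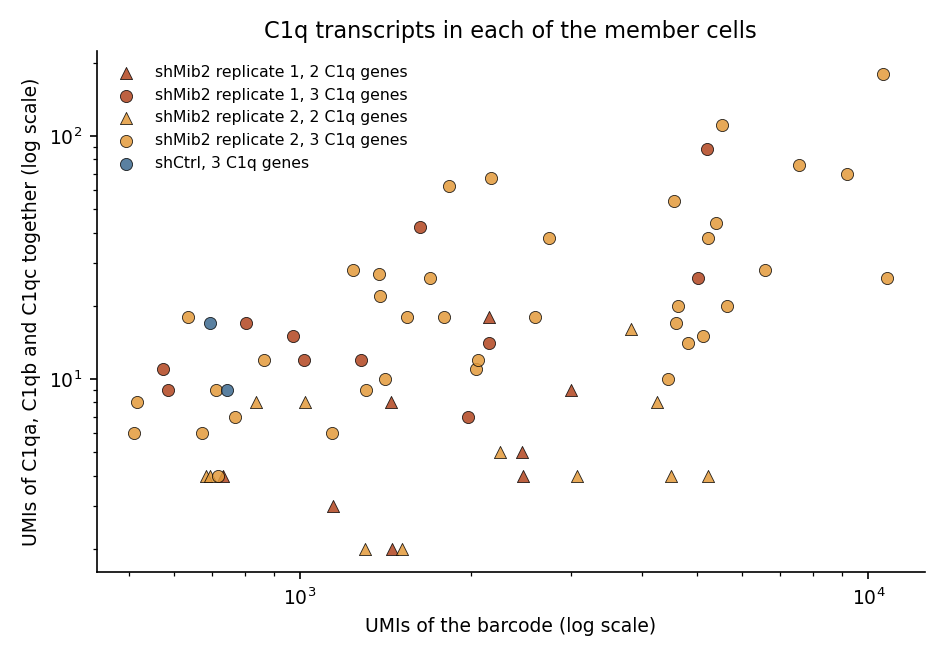
C1q transcripts of the 71 members. Each point is a cell, with its UMIs in all on the horizontal axis and its summed UMIs of C1qa, C1qb and C1qc on the vertical axis, both on log scales; colors give the library and triangles mark cells with 2 of the 3 C1q genes. The highest cell, in shMib2 replicate 2, has 179 C1q UMIs, and the shCtrl cells have 17 and 9.

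C1q transcripts were also found in other barcodes. The members held 73.8% and 63.2% of the C1qa UMIs past the filter in the libraries labelled shMib2, against 28% in shCtrl, where 18 of the 25 UMIs lay in melanin-rich barcodes. Of C1qb they held 57.1% and 64.0%, against 20% in shCtrl, and of C1qc 74.5% and 64.4%, against 31.4%. In replicate 1, 30 melanin-rich barcodes had a C1qb UMI, against 19 members. In replicate 2, barcodes with collagen genes held 14.5% of the C1qa UMIs. Of the T cells, 0 of 454 in shMib2 replicate 1 had at least 2 C1q genes, which allows a share of up to 0.661%, and 3 of 743 (0.404%) had them in replicate 2. Of NK cells, 0 of 151 and 3 of 294 (1.02%) had them. In barcodes with at least 0.5% Dct and Pmel UMIs the share was 0.105% and 0.287%, against 0.0245% in shCtrl. These cells were deep, with medians of 25305.5 and 43338 UMIs, against 26971 in shCtrl, while T cells had medians of 1825 and 2857 UMIs. A further 2, 6 and 0 barcodes in shMib2 replicate 1, shMib2 replicate 2 and shCtrl met the rule except for a T, B, NK or collagen gene, and 3, 8 and 1 except for the melanin limit.

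The members held few UMIs. Their median was 1454 UMIs (575 to 5200) in shMib2 replicate 1 and 2048.5 (512 to 10783) in replicate 2, and the 2 members in shCtrl had 694 and 745. C1q-negative phagocytes, the 86, 144 and 8 phagocyte barcodes with no C1q UMI, had medians of 2434, 4320.5 and 2354 UMIs. Median mitochondrial shares in the members were 1.96%, 1.23% and 1.85%. One member of shMib2 replicate 1, with 5200 UMIs, stood out with 18.5% mitochondrial UMIs. Of the UMIs in the members of that library, it held 267 of 384 for Apoe, 40 of 96 for C1qa and 30 of 46 for Ccl8. For Pf4 it held 9 of 16, for Folr2 9 of 12, for Mrc1 8 of 9 and for Csf1r 4 of 8. It also held 7 of 16 for Ccl12, 25 of 66 for Ccl7 and 29 of 99 for Ccl2. The replicate 1 levels of these genes thus rest in good part on this cell.

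The label was checked against markers of macrophages and of other cells. Csf1r, the receptor for the macrophage growth factor CSF1, had a UMI in 4 of 19 and 21 of 50 members (21.1% and 42%), against 0.661% and 0.404% of T cells. Adgre1, which encodes the macrophage antigen F4/80, had one in 2 and 10 members and in no T cell. Cd68, a lysosomal glycoprotein, was found in 16 and 40 members, and the lysozyme gene Lyz2 in 15 and 44. Mertk, a receptor for dying cells, had only 1 and 4 UMIs. Csf1r, Adgre1, Cd68 and Lyz2 are among the genes of the rule, so their presence follows from the choice of the cells and does not test the label, and Csf1r and Adgre1 were at 0 in most members at this depth. Of the markers that the rule did not use, Apoe was found in 13 and 35 members and Ms4a7 in 9 and 19.

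Markers of T cells, dendritic cells, neutrophils and fibroblasts were low, while melanoma and monocyte genes were found in many members. Of 8 T cell genes, Cd3e (by the rule), Cd3g, Cd8a, Cd4 and Lck were at 0 in all members, and the rest had 6 UMIs in 1 cell. The 10 dendritic cell genes had 0 and 7 UMIs in the members labelled shMib2, with Flt3, Zbtb46, Xcr1 and Ccr7 at 0, and the neutrophil genes had 0 and 9. The 7 melanoma genes had 35 and 153 UMIs in 14 and 41 members, or 0.0970% and 0.0984% of the members' UMIs, against 0 in shCtrl. Dct and Pmel are among them and were held under 0.5% by the rule. The low share thus follows in part from the choice of the cells and does not test the label. Fibroblast genes had 3 and 8 UMIs, with Dcn and Pdgfra at 0. Hemoglobin and the erythroid enzyme Alas2 had 8 and 1164 UMIs, against 353 in shCtrl, where they lay in 1 of the 2 members. In replicate 2, a single member held 625 of the 647 Hbb-bs UMIs. Monocyte genes had 88 and 323 UMIs in 10 of 19 and 28 of 50 members, or 0.244% and 0.208% of the members' UMIs. At least 2 of the 10 monocyte genes were found in 7 and 19 members.

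The gene content of C1q macrophages was described against the C1q-negative phagocytes of the same library. A gene was called higher or lower when its summed CPM differed by at least 2-fold, with 1 CPM added, in the same direction in both libraries labelled shMib2. Of 3235 genes at 50 CPM or more, 192 were higher (5.94%) and 195 lower (6.03%), with a median log2 fold of -0.10 over all of them. Across 6 ways of counting, the reported one included, 39 of the 192 and 53 of the 195 kept their call. The other ways were equal weight of cells, thinning to 1000 UMIs, a minimum of 10 UMIs, 10 CPM added and the second reference below. A gene said below to have held its call is among those kept. The reference includes 16 and 15 cells with dendritic cell genes and 2 and 5 with neutrophil genes, so a second reference without them was also used. Against it, of the genes named below, the higher calls of Csf1r, Pf4, Lpl, Spp1, Plin2, Gpnmb, Hilpda and Il1a and the lower calls of Cst3 and Ciita were lost, and H2-Oa, S100a9, Xcr1, Flt3, Ccr7 and Top2a fell under the CPM minimum. A gene at 50 CPM in 1 class is enough to be compared. Genes that are low in the other class thus pass through the class where they are high. The counts and medians of lists below describe the genes that passed and are not read as results about the lists. Over all 3235 genes the shares are the 5.94% and 6.03% given above. The library labelled shCtrl, with 2 members and 8 C1q-negative phagocytes, took no part in the calls.

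After C1q itself, the gene with the largest mean log2 fold was a chemokine gene. Chemokines are secreted proteins that draw leukocytes. Ccl8, which encodes MCP-2, had 46 and 177 UMIs in C1q macrophages (1275 and 1139 CPM), against 5 and 1 UMIs in C1q-negative phagocytes (20.4 and 1.49 CPM). It was 62.4-fold (24.9 to 201) higher in replicate 1 and, 762-fold (135 to 30257) in replicate 2, where the ratio rests on that single UMI. Ccl12 and Ccl7, which like Ccl2 encode ligands of the monocyte receptor CCR2, were also higher. Ccl12 had 444 and 386 CPM in C1q macrophages, against 24.5 and 29.9 CPM in C1q-negative phagocytes, and Ccl7 had 1830 and 868 CPM, against 118 and 102 CPM. Ccl2 had 2745 and 1782 CPM, against 580 and 584 CPM, or 4.73-fold (3.62 to 6.16) and 3.05-fold (2.60 to 3.57). All of these held their call. Of 21 chemokine genes compared, 6 were higher and none lower, and their median log2 fold was 0.98. Ccl8 and Ccl12 passed the CPM minimum only through the C1q macrophages, so neither the count nor the median is read as a result.

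Other chemokines lost their call under some settings or were not called. Ccl6 had 2052 and 1666 CPM in C1q macrophages, against 388 and 686 CPM in C1q-negative phagocytes. Pf4, which encodes platelet factor 4 and is also made by resident macrophages, had 444 and 971 CPM, against 172 and 29.9 CPM. It was 2.59-fold higher in replicate 1 and 32.5-fold in replicate 2, and its call was lost against the reference without dendritic cell and neutrophil genes, where replicate 1 had 256 CPM. Ccl4, another chemokine gene, had 693 and 3442 CPM, against 1128 and 1221 CPM, and so went in opposite directions in the libraries. Cxcl2, which draws neutrophils, had 3133 and 4799 CPM, against 3068 and 3266 CPM. Cxcl9 and Cxcl10, ligands of CXCR3 on T cells, had 527 and 257 CPM and 305 and 637 CPM in C1q macrophages, against 503 and 132 CPM and 552 and 780 CPM, and neither was called.

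Most of the Ccl8, Ccl7 and Ccl2 RNA of the tumors was outside the phagocytes. Barcodes with at least 2 of Col1a1, Col1a2 and Col3a1, which resemble fibroblasts, numbered 320 and 299 in the libraries labelled shMib2 and held 69.3% and 68.0% of the Ccl8 UMIs, while C1q macrophages held 5.64% and 15.3%. As a level per UMI, Ccl8 was at 172 and 179 CPM in these collagen barcodes, against 1275 and 1139 CPM in C1q macrophages. Ccl7 was at 586 and 727 CPM in the collagen barcodes and Ccl2 at 1525 and 1534 CPM. These lay closer to the levels in C1q macrophages given above than was the case for Ccl8. Col1a1 was at 0 in the members by the rule, and the other fibroblast genes had the few UMIs given above. The collagen barcodes of replicate 2 also held 38.8% of its Pf4 UMIs. By contrast, C1q macrophages held 47.8% and 74.1% of the UMIs of Mmp12, macrophage elastase.

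**Figure D3:**
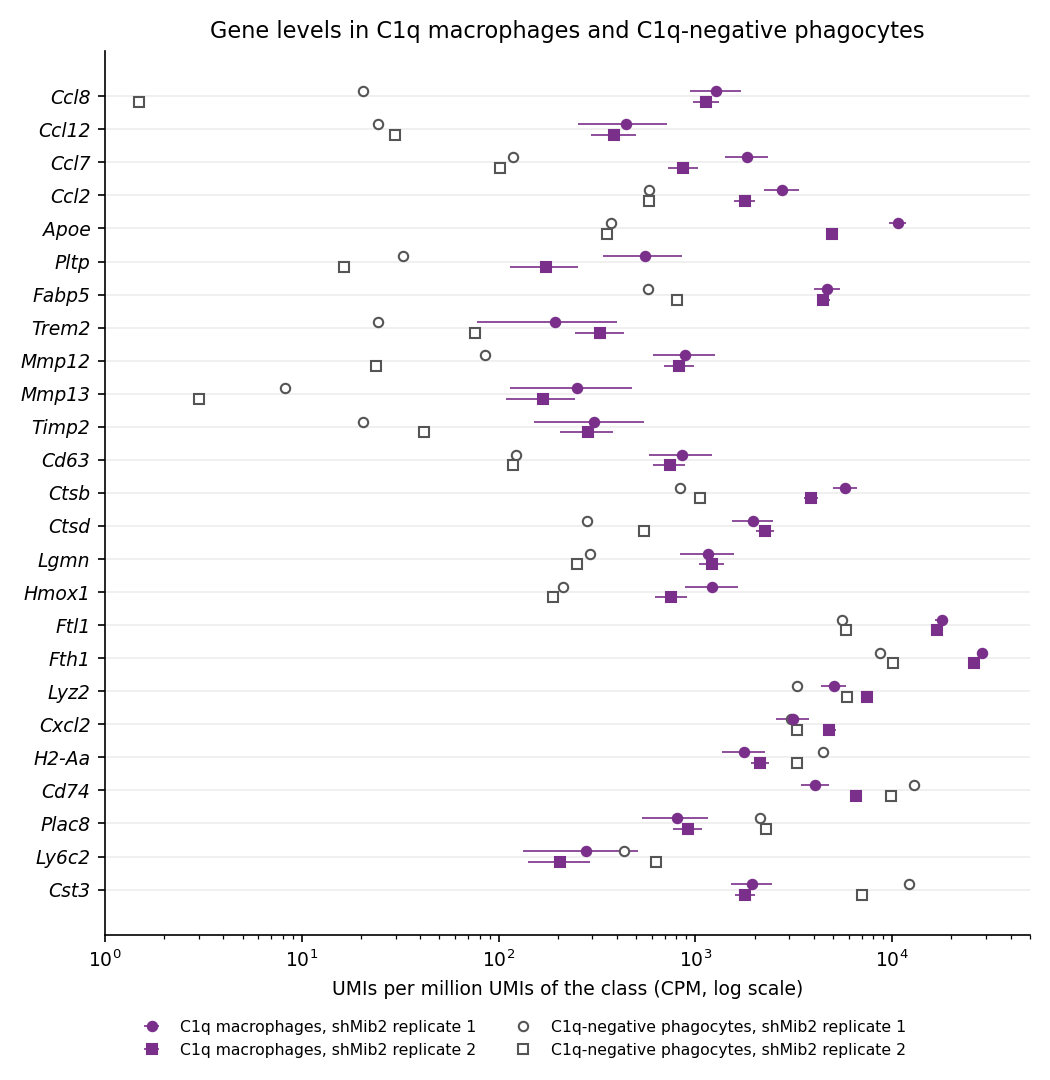
Levels of 25 genes in C1q macrophages (filled purple symbols, lines are exact Poisson 95% intervals) and C1q-negative phagocytes (open symbols) of the libraries labelled shMib2, in CPM on a log scale; circles are replicate 1 and squares replicate 2. Ccl8 is at 1275 and 1139 CPM in C1q macrophages and at 20.4 and 1.49 CPM in C1q-negative phagocytes, while Plac8 and Cst3 lie on the other side.

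Of 21 genes of lipid transport and storage compared, 12 were higher, 6 of which held their call. Apoe, an apolipoprotein that carries cholesterol out of macrophages, had 384 and 770 UMIs in C1q macrophages (10647 and 4953 CPM), against 91 and 237 UMIs in C1q-negative phagocytes (372 and 354 CPM). It was 28.6-fold (22.7 to 36.4) and 14.0-fold (12.1 to 16.2) higher and was found in 13 of 19 and 35 of 50 members. A single member held 267 of the 384 UMIs in replicate 1, the cell with 18.5% mitochondrial UMIs. Without the tenth of the members with the most UMIs, the mean over both libraries was 4749 CPM in place of 7800 ± 4026 CPM (SD, n = 2). Apoe is also a major transcript of the B16-F10 cells, whose melanin-rich barcodes held 98.3% and 97.8% of its UMIs. With every cell thinned to 500 UMIs, it was found in 57.9% and 58% of C1q macrophages, against 16.3% and 14.6% of C1q-negative phagocytes of the same libraries, and in 13.9% and 15.3% of T cells before thinning.

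Fatty acid binding proteins, which carry lipids in the cell, followed. Fabp5 had 4686 and 4464 CPM in C1q macrophages, against 572 and 807 CPM in C1q-negative phagocytes, or 8.19-fold (6.51 to 10.3) and 5.53-fold (4.94 to 6.20). Fabp4 had 277 and 431 CPM, against 12.3 and 74.7 CPM, but in replicate 1 all its 10 UMIs lay in 1 member. Trem2, a lipid receptor of macrophages, had 194 and 328 CPM, against 24.5 and 76.2 CPM, and Pltp, a phospholipid transfer protein, had 555 and 174 CPM, against 32.7 and 16.4 CPM. These 4 genes held their call, as did Cd36, a scavenger receptor. No lipid gene compared was lower, and their median log2 fold was 1.51. Pltp, Fabp4 and Nr1h3 passed the CPM minimum only through the C1q macrophages, so neither the count nor the median is read as a result. Spp1, which encodes osteopontin, had 2412 and 2123 CPM, against 646 and 946 CPM, and like Plin2, Gpnmb and Lpl it lost its call under some settings. Lgals3 and Tyrobp, the most widely found genes of this list, were not called.

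Several lysosomal genes were higher. The cathepsin gene Ctsb, a lysosomal protease, had 5767 and 3853 CPM in C1q macrophages, against 833 and 1052 CPM in C1q-negative phagocytes, and was found in 18 and 42 members. It was 6.92-fold (5.68 to 8.43) and 3.66-fold (3.28 to 4.09) higher. Ctsd, another cathepsin, had 1968 and 2258 CPM, against 282 and 547 CPM, and the tetraspanin gene Cd63 had 859 and 740 CPM, against 123 and 118 CPM. Lgmn, an asparagine-specific protease, had 1164 and 1209 CPM, against 290 and 251 CPM. Of 21 genes compared, 9 were higher, 6 of which held their call, and 1 was lower. That gene, Cst3, encodes the cathepsin inhibitor cystatin C and is also high in dendritic cells. It had 1941 and 1795 CPM, against 12126 and 7040 CPM, and 7442 and 3120 CPM in the reference without dendritic cell and neutrophil genes, which ended its call in replicate 2.

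Ferritin transcripts were abundant in the cells. Fth1 and Ftl1 encode the heavy and light chains of ferritin, which stores iron, and had UMIs in all 71 members. Fth1 had 28585 and 26131 CPM in C1q macrophages, against 8694 and 10074 CPM in C1q-negative phagocytes, and Ftl1 had 17883 and 16829 CPM, against 5544 and 5801 CPM. In replicate 1, 6 members, those with a UMI of Spp1, held 786 of the 1031 Fth1 UMIs. The other 13 members were at 10702 CPM of Fth1, and the 34 members without Spp1 in replicate 2 at 21389 CPM. Hmox1, which breaks down heme, had 1220 and 753 CPM, against 212 and 188 CPM. These 3 genes held their call, and of 7 iron genes compared 5 were higher and none lower, with a median log2 fold of 1.61. The heme scavenger receptor gene Cd163 was at 0 in all members.

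Genes of complement and of the uptake of dying cells were found at low counts. Apart from C1q, 7 complement genes were compared and 3 were higher, namely Cfb (factor B) and the receptor genes C3ar1 and C5ar1. C3ar1 had 499 and 270 CPM in C1q macrophages, against 118 and 65.8 CPM in C1q-negative phagocytes. None of the 3 kept its call under all 6 settings. C1ra and C1s1, the proteases that form the C1 complex with C1q, and Vsig4, a complement receptor of resident macrophages, were at 0 in the members labelled shMib2. Of 14 genes for the uptake of dying cells, 6 were higher (Axl, Gas6, Stab1, Cd36, Mrc1 and Msr1) and 1, Cd300a, was lower. Of these genes Cd36 alone held its call. Gas6, Stab1 and Mrc1 passed the CPM minimum only through the C1q macrophages, so the count is not read as a result. Gas6, the ligand of Axl and Mertk, had 5 and 4 UMIs, against 0 in both libraries, which makes it at least 11.3-fold and 5.74-fold higher against a floor of 3 UMIs per library. All 5 UMIs in replicate 1 lay in 1 member.

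Genes of tissue-resident macrophages were found at low counts. Of 20 listed, 8 passed the minimum and 7 of these were higher, but Folr2, Mrc1, Gas6, Cbr2 and Stab1 passed only through the C1q macrophages, and Gas6, Cbr2 and Stab1 were not compared with at least 10 UMIs in place of the CPM minimum, so neither the count nor the median log2 fold of 3.15 (3.09 with counts of 0 set to the floor) is read as a result. Folr2, a folate receptor, had 12 and 14 UMIs in 2 and 5 members, against 0 and 9 UMIs in C1q-negative phagocytes, which is at least 27.1-fold higher in replicate 1 and 6.69-fold (2.70 to 17.5) in replicate 2. Mrc1, the mannose receptor, had 250 and 206 CPM, against 16.3 and 64.3 CPM, and Selenop, a selenium transport protein, had 610 and 405 CPM, against 32.7 and 94.2 CPM. These genes lay in few cells, and Selenop alone held its call. In replicate 1, the cell with 18.5% mitochondrial UMIs held 9 of the 12 Folr2 UMIs and 8 of the 9 Mrc1 UMIs. Without the tenth of the members with the most UMIs, the mean over both libraries was 63.2 CPM in place of 211 CPM for Folr2, 91.6 in place of 228 CPM for Mrc1 and 213 in place of 508 CPM for Selenop. Timd4, Lyve1, Cd163, Clec4f, Cd209b, Cd209f, Cd209g and Sall1, genes of defined resident populations, were at 0 in all members. Ms4a7, a membrane protein gene among the macrophage markers, had 14 and 42 UMIs, against 0 and 11, which is at least 31.7-fold higher in replicate 1 and 16.4-fold (8.31 to 35.4) in replicate 2, and it held its call. Ednrb, an endothelin receptor gene outside this list, had 8 and 8 UMIs, against 0 and 3.

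Of 17 adhesion and matrix genes compared, 6 were higher and none lower, among them proteases that cut the extracellular matrix. Mmp12 had 32 and 129 UMIs in C1q macrophages, against 21 and 16 in C1q-negative phagocytes, or 887 and 830 CPM, against 85.8 and 23.9 CPM. It was 10.3-fold (5.78 to 18.9) and 34.7-fold (20.6 to 62.5) higher. Mmp13, a collagenase, had 9 and 26 UMIs in 3 members of each library, against 2 and 2 UMIs. Timp2, an inhibitor of metalloproteases, had 305 and 283 CPM, against 20.4 and 41.9 CPM. With Cd63 these genes held their call. Mmp13 and Timp2 passed the CPM minimum only through the C1q macrophages, so the count is not read as a result. Mmp9 and Mmp2 were at 0.

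Some genes of antigen presentation and of monocytes were lower. Cd74, the invariant chain of MHC class II, had 4076 and 6555 CPM in C1q macrophages, against 12952 and 9901 CPM in C1q-negative phagocytes. H2-Aa, a class II chain, had 1774 and 2136 CPM, against 4470 and 3276 CPM. Cd74 was at 0.315 and 0.662 of the C1q-negative level and H2-Aa at 0.397 and 0.652, so neither reached 2-fold in replicate 2. Of 10 class II genes compared, 3 were lower and none higher, with a median log2 fold of -1.17, or -1.02 with counts of 0 set to the floor. H2-DMb1, a chaperone of peptide loading, had 83.2 and 199 CPM, against 699 and 549 CPM, and held its call. Ciita, the activator of class II genes, had 0 and 6 UMIs, against 25 and 61, and H2-Oa had 0 and 0, against 17 and 21. Against the reference without dendritic cell and neutrophil genes, the call of Ciita was lost and H2-Oa was not compared, while Cd74 had 10621 and 7601 CPM and H2-Aa 3544 and 2455 CPM in that reference, closer to the C1q macrophages.

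Of 11 monocyte genes compared, 3 were lower and none higher, and those 3 held their call. Plac8, a gene high in circulating monocytes, had 804 and 913 CPM in C1q macrophages, against 2133 and 2293 CPM in C1q-negative phagocytes. Nr4a1, a transcription factor of nonclassical monocytes that is also induced by stimulation, had 3 and 37 UMIs, against 122 and 341. Ly6c2, a surface antigen of classical monocytes, had 277 and 206 CPM, against 433 and 631 CPM, and Ccr2 had 222 and 244 CPM, against 376 and 493 CPM. Chil3, a chitinase-like protein gene, had 527 and 90.1 CPM, against 184 and 578 CPM, and so went in opposite directions.

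Several of the genes with the lowest ratios mark other cells. S100a9, an alarmin of neutrophils, had 0 UMIs in the members labelled shMib2, against 150 and 43 in C1q-negative phagocytes, and 0 in the reference without dendritic cell and neutrophil genes. Xcr1, Flt3 and Ccr7, dendritic cell receptors, were at 0 in C1q macrophages, against 19 and 41, 17 and 24, and 21 and 36 UMIs. Klrd1, a receptor of NK cells and some dendritic cells, was at 0, against 23 and 132 UMIs, and 17 and 113 in the reference without dendritic cell and neutrophil genes. Cd209a, a lectin of monocyte-derived dendritic cells, had 0 and 1 UMI, against 45 and 128. Klrd1 and Cd209a held their call. Top2a, a gene of dividing cells, was at 0, against 11 and 47 UMIs, and Mki67 had 0 and 1. Of 6 proliferation genes compared, Top2a alone was called, and their median log2 fold was 0.13. The whole list took 0.144% and 0.0862% of the members' UMIs, against 0.124% and 0.120% in C1q-negative phagocytes. No difference in division is read from these genes.

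Transcription factors of macrophages were mixed. Maf, which acts in macrophage differentiation, had 471 and 289 CPM in C1q macrophages, against 89.9 and 53.8 CPM in C1q-negative phagocytes, or 5.24-fold (2.61 to 10.3) and 5.38-fold (3.39 to 8.58), and held its call. Spi1, which encodes PU.1, had 416 and 251 CPM, against 572 and 546 CPM. Nr1h3, the oxysterol receptor LXRα, had 3 and 4 UMIs, against 3 and 3, and was called higher on these few molecules. Of 26 transcription factors compared, 2 were higher and 3 lower. Csf1r had 222 and 232 CPM, against 81.7 and 83.7 CPM, and lost its call against the reference without dendritic cell and neutrophil genes (122 and 101 CPM).

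Among the polarization, checkpoint ligand and interferon lists, only alternative polarization gave calls. Of 8 genes of alternative polarization compared, 3 were higher (Maf, Mrc1 and Folr2), while Retnla, Ccl17 and Ccl22 were at 0 in all members. Mrc1 and Folr2 passed the CPM minimum only through the C1q macrophages. Arg1, which breaks down arginine, had 250 and 277 CPM in C1q macrophages, against 249 and 121 CPM in C1q-negative phagocytes. Of 13 genes of inflammatory polarization none was called, with a median log2 fold of -0.07. The inflammatory cytokine gene Il1b had 527 and 1184 CPM, against 1414 and 1656 CPM, and Tnf had 250 and 277 CPM, against 302 and 154 CPM. Il10, Il12a and Il12b were at 0. Cd274, which encodes PD-L1, had 5 and 25 UMIs, against 18 and 49 (139 and 161 CPM, against 73.5 and 73.2 CPM), and was not called. It was found in 4 of 19 and 11 of 50 members (21.1% and 22%), against 4.85% and 10.4% of T cells. After thinning to 500 UMIs it was found in 0% and 4% of the members, against 5.81% and 6.25% of C1q-negative phagocytes, which goes against the CPM, and no order is read from it. Ido1 was at 0. None of 10 checkpoint ligands and none of 22 interferon genes was called. Over all 3235 genes, 5.94% were called higher and 6.03% lower, so the absence of calls in lists of this size is not read as a result. Isg15, an interferon-induced ubiquitin-like modifier, had 1109 and 785 CPM, against 597 and 566 CPM.

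The remaining lists had between 0 and 3 higher genes each. Among 7 Fc receptor genes, Fcgr4 alone was higher, with 250 and 244 CPM in C1q macrophages, against 53.1 and 49.3 CPM in C1q-negative phagocytes, and it held its call. Among 13 cytokine and growth factor genes, Il1a, Igf1 and Il18bp were higher. Il18bp, which blocks IL-18, had 7 and 9 UMIs, against 3 and 8, and Igf1 had 3 and 8 UMIs, against 0 and 4. Hypoxia genes had 3 of 16 higher (Hilpda, Ero1l and Spp1), innate receptors 2 of 12 higher and 1 lower, growth factor receptors 2 of 14 higher, inhibitory receptors 1 of 9 lower and proliferation genes 1 of 6 lower. Of 23 genes of dissociation and early response, 1 was higher and 1 lower, with a median log2 fold of -0.03. Of the PD-L1 and Notch genes of the study, 2 had enough UMIs to be compared, Rbpj and Cd274, and neither was called.

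**Figure D4:**
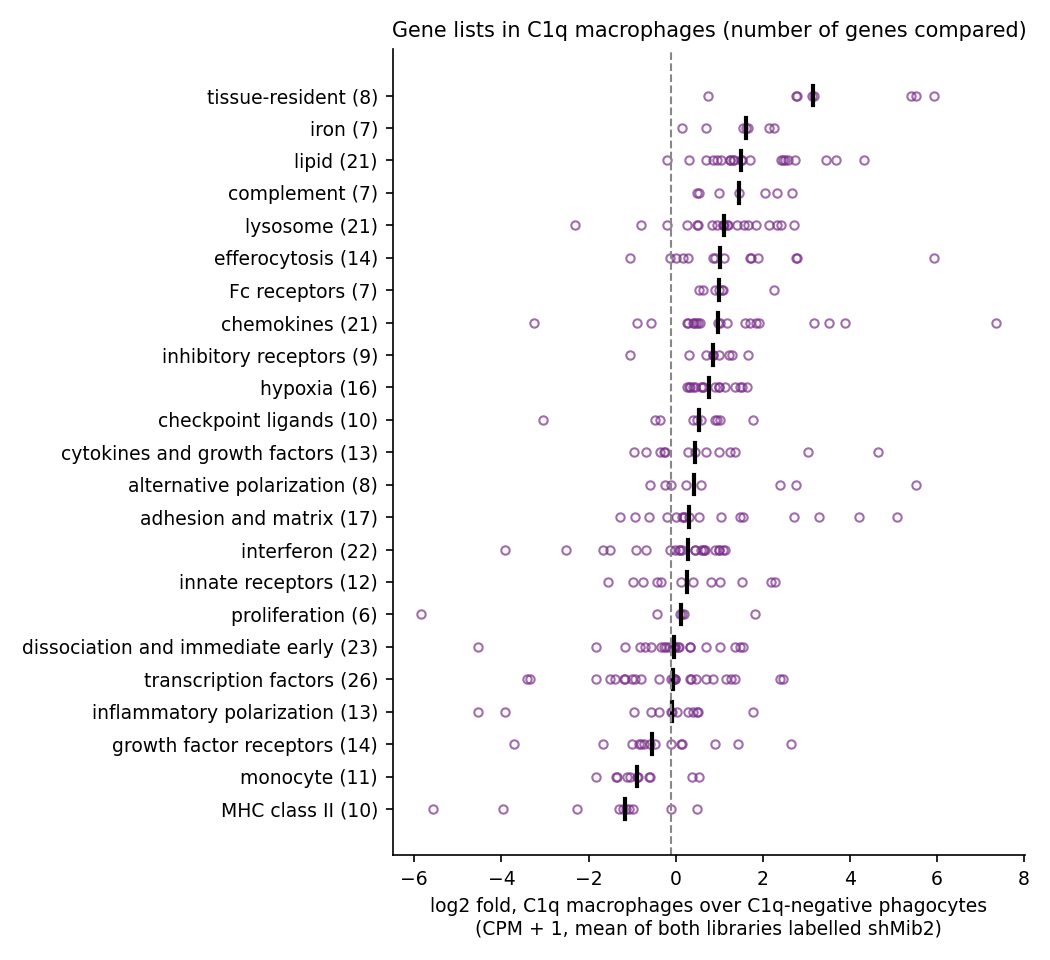
Gene lists in C1q macrophages. Each circle is a gene, placed by its log2 fold of C1q macrophages over C1q-negative phagocytes (mean of both libraries labelled shMib2, 1 CPM added), black bars are medians of lists with at least 5 genes and the dashed line is the median of all 3235 genes (-0.10). The medians run from 3.15 for the 8 tissue-resident genes, some of which passed the minimum only through the C1q macrophages, to -1.17 for MHC class II, and the C1q genes are left out.

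The members were not uniform. The splits that follow were chosen after the values of single cells were seen, by a UMI of Ccl8, Plac8 or Spp1, and cells of a library are not replicates. Ccl8 was found in 5 of 19 and 18 of 50 members and Plac8 in 7 and 18, and both in 1 and 2. If the 2 genes fell independently, 1.84 and 6.48 members would be expected to hold both. The overlap in replicate 1 was thus near that value, and the one in replicate 2 lay below it. Members with a Ccl8 UMI had a summed Plac8 level of 149 and 49.0 CPM, against 1191 and 1222 CPM in members without one, and Ly6c2 was at 0, against 441 and 279 CPM. Ccl12 had 1120 and 1102 CPM, against 44.1 and 131 CPM, and Apoe had 22999 and 8960 CPM, against 3352 and 3525 CPM. C1q itself was higher in them, with 4704 and 5068 CPM of C1qa, against 1455 and 1544 CPM. C1q UMIs chose the members, and a shallow barcode needs a larger C1q share to meet the rule. The C1q levels are thus a description only, and the part of depth in them was not tested. Depth went in different directions, with medians of 1629 and 1275 UMIs in members with Ccl8, against 1451 and 3446 in those without. In replicate 1, 30 of the 46 Ccl8 UMIs lay in the cell with 18.5% mitochondrial UMIs, and in replicate 2 the highest cell held 67 of 177. Of the UMIs in the 5 members with Ccl8 in replicate 1, that cell also held 267 of 308 for Apoe, 40 of 63 for C1qa and 7 of 15 for Ccl12. The replicate 1 levels of these genes in members with Ccl8 thus rest in good part on 1 cell.

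Members with a Plac8 UMI carried other monocyte genes and were deeper. Ccr2 had 371 and 514 CPM in them, against 58.2 and 23.4 CPM in members without Plac8, and Ly6c2 had 477 and 428 CPM, against 58.2 and 23.4 CPM. Their medians were 2456 and 4163.5 UMIs, against 1081.5 and 1397, and the part of depth in finding a UMI was not tested. C1qc was lower in them, at 1430 and 1384 CPM, against 2676 and 2471 CPM. C1qb had 3603 and 2712 CPM, against 4013 and 4111 CPM. C1qa had 2702 and 1770 CPM, against 2617 and 3045 CPM, and so was not lower in replicate 1. The C1q genes are part of the rule, and the part of depth in these levels was not tested. Of the 14 members with a Ccr2 UMI in replicate 2, 12 also had Plac8.

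A further split was by Spp1, most of whose RNA lay in other barcodes. Melanin-rich barcodes of shMib2 replicates 1 and 2 held 83.7% and 80.3% of the Spp1 UMIs, and collagen barcodes 12.3% and 14.1%. The members held 0.341% and 1.23%, and the part of RNA from other cells in this split was not tested. Spp1 was found in 6 of 19 and 16 of 50 members, with 87 and 330 UMIs, and in both libraries 3 cells held most of them (88.5% and 70.3%). Members with Spp1 had 10929 and 7725 CPM of Fabp5, against 1092 and 1709 CPM in those without, and 3415 and 1096 CPM of Hilpda, a lipid droplet protein induced in low oxygen, against 349 and 629 CPM. Fth1 had 59654 and 31742 CPM, against 10702 and 21389 CPM, and Mmp12 had 1290 and 1742 CPM, against 655 and 59.3 CPM. Their median depth was 2153 and 4588 UMIs, against 1145 and 1528.5. Of the members with Il1b, 2 of 5 in replicate 1 and 12 of 16 in replicate 2 also had Cxcl2.

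**Figure D5:**
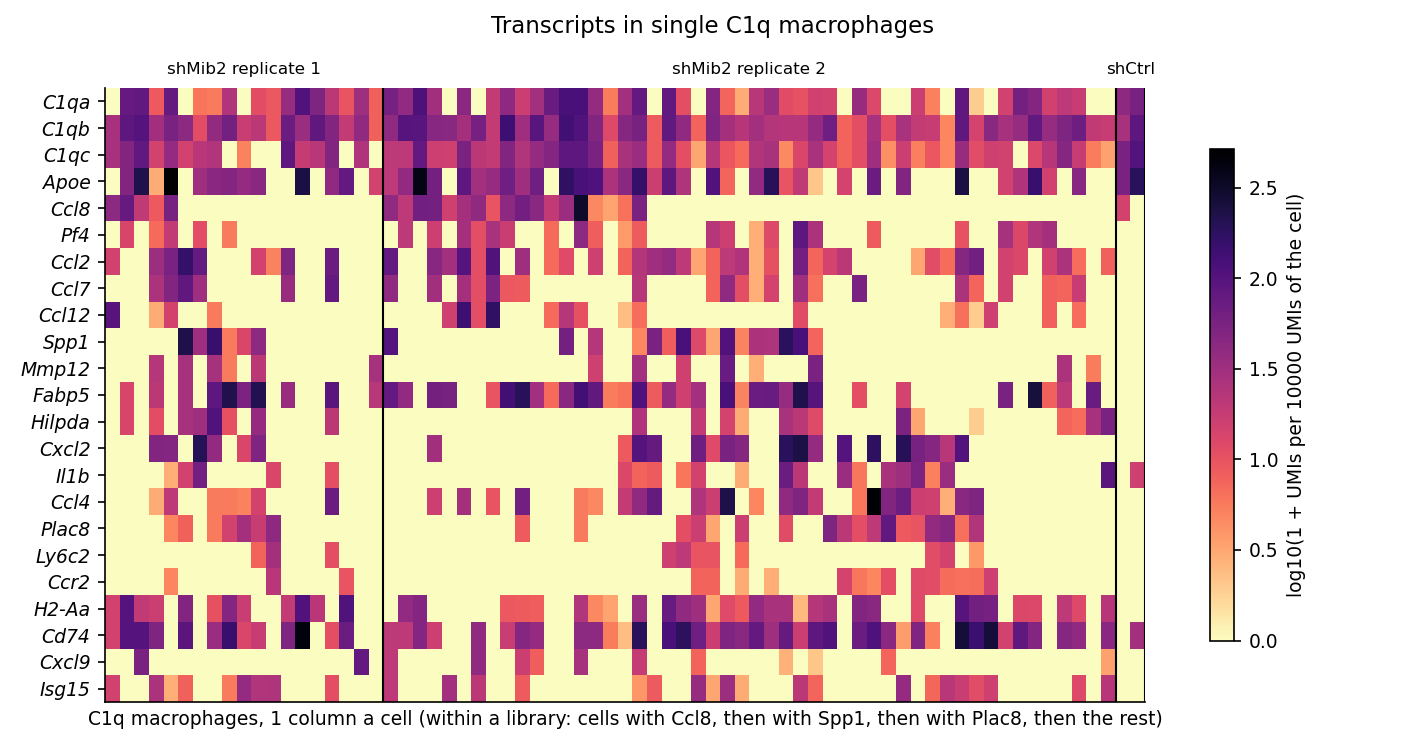
Transcripts in each of the 71 members. Columns are cells, grouped by library and, within a library, with Ccl8 first, then Spp1, then Plac8, then none of these, so the blocks of these genes follow from the order. Rows are genes, and color gives log10 of 1 plus the UMIs per 10000 UMIs of the cell. Plac8 has a UMI in 1 and 2 of the 5 and 18 cells with Ccl8 in the libraries labelled shMib2.

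The libraries labelled shMib2 differed in some genes of the members. Of 1085 genes with at least 50 CPM and at least 20 UMIs in either library, 128 were at least 2-fold higher in replicate 2 than in replicate 1 (11.8%) and 52 at least 2-fold lower (4.79%). The heat shock gene Hspa1a had 283 CPM in replicate 2, against 1331 CPM in replicate 1, and Hsp90aa1 had 528, against 1553 CPM. Il1rn, which blocks the IL-1 receptor, had 219, against 721 CPM. Socs3, an inhibitor of cytokine signaling, had 25 UMIs in 13 members of replicate 2, and Vsir, which encodes the checkpoint VISTA, 23 in 12, against 0 of each in the 19 members of replicate 1.

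The library labelled shCtrl gave little on gene content. Its 2 members held 17 UMIs of Apoe, 19 of Ftl1, 15 of Fth1 and 1 each of Csf1r, Ccl8 and Ms4a7, and none of Fabp5, Spp1, Mmp12, Plac8, Ccl2, Ccl7 or Pf4. Apoe was at 11814 CPM there (exact Poisson interval 6882 to 18915), and the ratio of the libraries labelled shMib2 to it was 0.660 ± 0.341 (SD, n = 2). The planned count test between labels needed 20 members in every library, which shCtrl and shMib2 replicate 1 did not reach. Of 475 genes tabulated, 12 had values in both libraries labelled shMib2 outside the exact Poisson interval of shCtrl. Above it were Lyz2, Fabp5, Lgals3, Fth1, Cxcl2 and Malat1, with 28585 and 26131 CPM of Fth1 in the libraries labelled shMib2, against 10424 CPM (5834 to 17193) in shCtrl. Below it were C1qc, Irf1 and the hemoglobin genes Hbb-bs, Hbb-bt, Hba-a1 and Hba-a2, whose UMIs lay in 1 of the 2 shCtrl members and made up 24.5% of the UMIs summed there. The intervals cover counting error only and 2 cells do not represent the cells of 1 library, so these are values side by side and not a difference shown between labels.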

How the data were processed

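The authors deposited UMI counts per gene and barcode, not normalized, from Cell Ranger 4.0.0 with mm10 as given in the submitters' processing notes, for 32285 genes. The matrices hold called cells only, and the labels name a 5′ V(D)J kit. No doublet caller was run. The members, gene lists and splits were chosen with earlier results of these data known. Counts were summed over cells per library and scaled to CPM. Shares have Wilson and ratios exact conditional 95% intervals. The planned edgeR test required at least 20 members in every library and was not run, so no p-value is given. Named genes were the markers, up to 6 of each of 24 lists found in most members, up to 12 with the largest fold in each direction between classes and up to 10 in each direction between replicates. After the data were seen, up to 20 genes in each direction with at least 10 UMIs over both classes in each library were added, since several of the largest folds rested on few UMIs, and genes at 0 and genes of the single-cell splits were named as needed. Some genes under the rule are not reported here. Alternatives covered filters, the C1q and lineage rules, thinning, equal weight of cells, pseudocount, denominators, the reference, and cells rich in hemoglobin. Tools were Python 3.11.15, numpy 2.4.6, scipy 1.17.1, pandas 2.3.3 and matplotlib 3.10.9.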

Additional observations from a re-analysis of the deposited data

How the results depend on the processing

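The mean ratio of the share of C1q macrophages, 20.02, was between 14.3 and 30.7 under 7 changes of the rule and the filter, and 4.18 when barcodes with under 0.5% Dct and Pmel UMIs were the denominator. It was 30.3 without shMib2 replicate 1 and 9.78 without shMib2 replicate 2. Among phagocyte barcodes the ratio of 1.00 became 1.44 with at least 1 C1q gene, 1.18 without replicate 1 and 0.819 without replicate 2, on both sides of 1. No ratio could be computed under a stricter filter (500 genes, 10% mitochondrial UMIs) or after thinning to 1000 UMIs, since shCtrl kept 0 members. The 192 higher genes became 113 with at least 10 UMIs in place of the CPM minimum. The 195 lower genes became 294 with equal weight of cells and 352 after thinning to 1000 UMIs. Without replicate 1 the counts were 296 higher and 346 lower genes, and without replicate 2, 1095 and 806, since a call then needs 1 library only. Of the 192 higher genes, 90 were shared with the equal weight of cells and 82 with thinned cells, and of the 195 lower genes 120 and 97. The other causes were not tested. Of 148 gene levels, 22 moved by over 1.5 times with equal weight of cells, 17 without the tenth of members with the most UMIs, 13 under the stricter filter, 28 without replicate 1 and 24 without replicate 2. The reference without dendritic cell and neutrophil genes, the left-out hemoglobin-rich members, the left-out libraries for gene counts and levels and the thinning to 500 UMIs were chosen after seeing the data. No paired analysis was possible because there is a single library labelled shCtrl and no test was run. Depth limits all values of single genes, with 36068 and 155449 UMIs in the members labelled shMib2, against 1439 in shCtrl.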
